A study of Mus musculus with 8 samples.

Results

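The 7 genes Kcnq1, Kcne1, Slc12a2, Bsnd, Atp1b1, Atp1b2 and Esrrb serve ion transport by the marginal cells of the stria vascularis. They were followed in RNA of tissue labelled as inner ear. They were chosen by symbol, with earlier results of these data known. Shares over all genes, given below for comparison, are therefore not a test of the group. All 7 were among the 47517 symbols of the count tables, and all 7 were among the 21392 that passed the filter on low counts. The samples were 4 of mutant mice, heterozygous for a frameshift that changes TRα1, the α1 thyroid hormone receptor encoded by Thra, and 4 of wild-type littermates, all untreated and taken at postnatal day 14. The labels name no strain and do not say whether a sample was 1 animal, 1 ear or a pool, so p-values describe the spread between these samples, which may be partly technical. The labels give the tissue as inner ear and the series title gives the cochlea. Libraries held 18930841 to 23064578 counts.

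Marginal cells line the endolymphatic face of the stria vascularis, the epithelium on the lateral wall of the cochlea. They take up potassium across their basolateral membrane through the sodium pump and the sodium-potassium-chloride cotransporter, and release it into the endolymph through a channel of KCNQ1 and KCNE1 subunits, while chloride returns through channels that need the subunit barttin. This secretion keeps the endolymph rich in potassium and at a positive potential, on which hair cell transduction depends. Vestibular dark cells, also part of the inner ear, secrete potassium with the same proteins. Thyroid hormone is needed for the inner ear to mature before hearing begins in mice.

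In short, 6 of the 7 genes had lower mean levels in mutant ears and 1, Slc12a2, a higher one, but none passed the test across all genes. The signs of Atp1b1 and Slc12a2 turned when certain single libraries were left out. Of all 21392 genes tested, 11051 had a negative log2 fold change and 10341 a positive one, the background for counts of signs given below. At an adjusted p under 0.05 (edgeR quasi-likelihood test, Benjamini-Hochberg adjustment over all 21392 genes) 0 of the 7 were called, where 0.0421% of all genes tested were (0.00467% higher and 0.0374% lower in mutant ears). At an unadjusted p under 0.05 in edgeR 1 of the 7, Esrrb, was lower, against 3.09% of all genes lower and 5.3% in either direction. DESeq2 also called 0 of the 7, against 0.318% of all genes, and had 2 at an unadjusted p under 0.05, against 6.44%. For 0 of the 7 did the genotypes lie apart without overlap, as they did for 2.69% of all genes. The median log2 fold change (mutant minus wild-type) of the 7 was -0.21, beside -0.0061 over all genes tested. Because each sample mixed many cell types, the number of marginal cells, RNA per marginal cell, other cell types and dissection cannot be told apart here.

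Promoter sequences from RefSeq (build GRCm38.p6) were matched for 2 of the 7 genes, Atp1b1 and Esrrb. They are the most abundant gene of the group and its transcription factor, and are printed so that the control regions of both can be read beside their levels. Each line is the last 150 bases before an annotated transcript start, 5′ to 3′ on the gene's strand, with CCAAT boxes (CCAAT on either strand) in capitals.
Atp1b1 (chr1:164458356-164458505, minus strand): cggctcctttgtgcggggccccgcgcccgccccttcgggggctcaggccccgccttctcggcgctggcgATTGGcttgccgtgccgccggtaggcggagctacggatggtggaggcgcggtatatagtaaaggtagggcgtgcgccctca
Esrrb, first start (chr12:86360967-86361116, plus strand): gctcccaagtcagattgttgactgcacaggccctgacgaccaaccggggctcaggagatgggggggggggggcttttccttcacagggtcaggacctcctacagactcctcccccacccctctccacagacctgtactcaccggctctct
Esrrb, second start (chr12:86421494-86421643, plus strand): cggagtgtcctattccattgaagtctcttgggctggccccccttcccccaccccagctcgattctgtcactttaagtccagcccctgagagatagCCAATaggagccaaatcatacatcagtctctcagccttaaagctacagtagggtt
CCAAT boxes stood 81 bases before the Atp1b1 start and 55 bases before the second Esrrb start, counted from the box's first base as printed. A CCAAT box was found in 24.5% of all 32851 promoters in the same 150 bases. Searches on both strands for AGGTCA, the core motif that thyroid hormone receptors and estrogen-related receptors share, found 0 matches in these 3 windows, against 8.58% of all promoters. TNAAGGTCA, the extended motif of estrogen-related receptors, which contains that core, also had 0 matches, against 0.569% of all promoters. These counts say only which letters stand in these windows.

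Levels were compared between genes per length, as TPM (transcript counts divided by the length of the merged exons and scaled within a library). Atp1b1, a sodium pump subunit, stood highest with a mean of 483 TPM over the 8 libraries, followed by Atp1b2 at 161 and Slc12a2 at 59.6 TPM. Kcne1 averaged 37.0 TPM, Kcnq1 25.9, Esrrb 18.4 and Bsnd 3.20 TPM. Each gene in this order exceeded the next in 8 of 8 libraries, except that Kcne1 exceeded Kcnq1 in 7. The range of Bsnd was 1.998 to 4.16 TPM, so the gene of the chloride channel subunit was the scarcest of the group by a ratio of 5.76 to Esrrb. The range of Atp1b1 was 358 to 577 TPM, and sodium pump subunits are made by many cell types of the ear besides marginal cells.

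**Figure D1:**
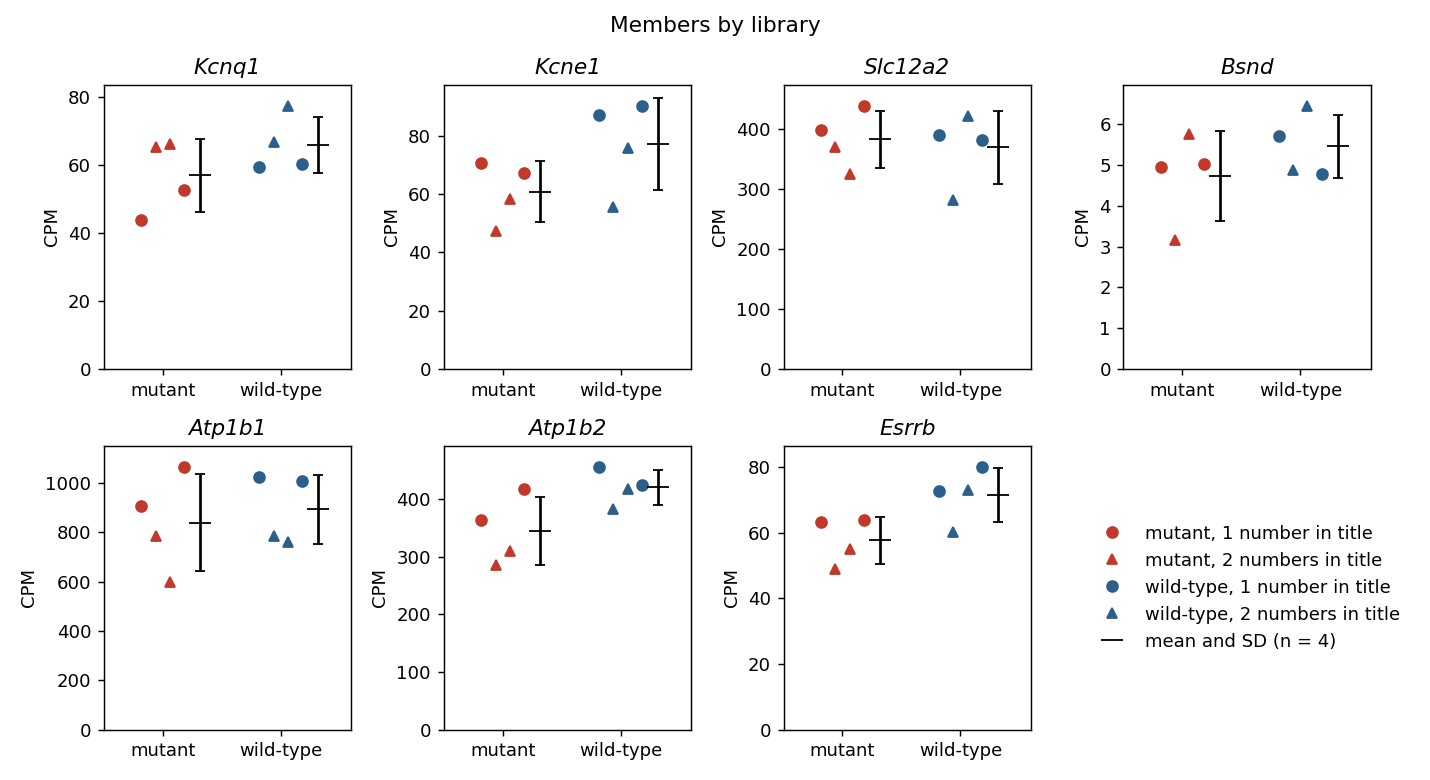
Level of each of the 7 genes in CPM (linear axis from 0) in the 4 mutant and 4 wild-type libraries, with the mean and SD of each genotype; circles and triangles are libraries whose sample titles hold 1 or 2 numbers. The genotypes overlap for all 7 genes, and the triangles sit above the circles for Kcnq1 and below them for Atp1b1.

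Kcnq1 (chromosome 7, 143106362 to 143427042, plus strand, GRCm38, 22 merged exons) encodes the pore-forming subunit of the channel through which potassium leaves the marginal cell. Its levels were 43.9, 65.2, 66.2 and 52.6 CPM in mutant replicates 1 to 4, against 59.5, 66.6, 77.3 and 60.3 CPM in wild-type replicates 1 to 4. CPM is the count scaled to the normalized size of its library. Mutant replicates 1 and 4 lay below every wild-type library and the other two mutant libraries lay within the wild-type range. The log2 fold change was -0.21 (SE 0.15, 95% interval -0.54 to 0.12, edgeR adjusted p = 0.973).

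Kcne1 (chromosome 16, 92345982 to 92359468, minus strand) encodes the small β subunit that slows and enlarges the current of this channel. It had 70.6, 47.2, 58.2 and 67.1 CPM in mutant replicates 1 to 4, against 87.2, 55.4, 75.6 and 90.2 CPM in wild-type replicates 1 to 4. Only mutant replicate 2 lay below every wild-type library, because wild-type replicate 2 was itself low. The log2 fold change was -0.34 (SE 0.18, 95% interval -0.74 to 0.055, edgeR adjusted p = 0.925), the lowest estimate among the 7 genes.

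Slc12a2 (chromosome 18, 57878678 to 57946821, plus strand) encodes the basolateral sodium-potassium-chloride cotransporter that loads the marginal cell with potassium. Its levels were 399, 370.2, 325 and 439 CPM in mutant replicates 1 to 4, against 391, 283, 423 and 383 CPM in wild-type replicates 1 to 4. The highest value belonged to a mutant library and the lowest to a wild-type one, and the log2 fold change of 0.051 (SE 0.15, 95% interval -0.28 to 0.38, edgeR adjusted p = 0.99999) had no stable sign. It was -0.021 without mutant replicate 4 and -0.058 without wild-type replicate 2. Mutant replicate 4 was also the library with 2021 CPM of Ttr, a marker of the choroid plexus, a secretory epithelium of the brain that uses this cotransporter. The 11 choroid plexus markers summed to 87.7, 98.0, 64.2 and 2183 CPM in mutant replicates 1 to 4, and to 75.0 to 89.4 CPM in wild-type libraries. All 11 had positive log2 fold changes, and 0 of them passed in edgeR. Their median was 0.63, but 0.013 without mutant replicate 4. Their part in the Slc12a2 value was not tested beyond leaving out that library.

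Bsnd (chromosome 4, 106483456 to 106492283, minus strand) encodes barttin, a subunit that chloride channels need to reach the membrane. It was counted 113, 69, 119 and 95 times in mutant replicates 1 to 4, against 123, 93, 124 and 104 times in wild-type replicates 1 to 4. On the CPM scale this was 4.73 ± 1.10 CPM in mutant and 5.46 ± 0.782 CPM in wild-type libraries (SD, n = 4 each), with mutant replicate 2 the lowest of the 8. The log2 fold change was -0.21 (SE 0.20, 95% interval -0.67 to 0.25, edgeR adjusted p = 0.99999), so a change of the size estimated for Esrrb lay within its interval.

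Atp1b1 (chromosome 1, 164437109 to 164458355, minus strand) encodes the β1 subunit of the sodium pump, which brings the catalytic α subunit to the membrane. It had 909, 784, 599 and 1066 CPM in mutant replicates 1 to 4, against 1023, 784, 759.7 and 1007 CPM in wild-type replicates 1 to 4. Both the highest and the lowest library were mutant, and the log2 fold change was -0.090 (SE 0.19, 95% interval -0.52 to 0.34, edgeR adjusted p = 0.99999). It was 0.042 without mutant replicate 3. Of its merged exon bases 18.7% are shared with exons of Nme7 on the opposite strand, and whether the counting used strand is not given in the sources used here.

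Atp1b2 (chromosome 11, 69599736 to 69605942, minus strand) encodes the β2 subunit, also known in mouse as an adhesion molecule of glia. It had 364, 286, 311 and 417 CPM in mutant replicates 1 to 4, against 456, 383, 418 and 424 CPM in wild-type replicates 1 to 4. In 3 of 4 mutant libraries the level lay below every wild-type library, and mutant replicate 4 lay inside the wild-type range. The log2 fold change was -0.29 (SE 0.13, 95% interval -0.58 to 0.0086, edgeR adjusted p = 0.924). The 6 markers of central glia, none of which passed, all had positive log2 fold changes. Their median was 0.27 (0.16 without wild-type replicate 4 to 0.46 without wild-type replicate 2). The part of glia in the Atp1b2 values was not tested.

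Among the 3 β subunit genes measured per length, Atp1b2 took 17.6 ± 2.12% of the summed TPM in mutant and 20.1 ± 1.37% in wild-type libraries (SD, n = 4 each). Atp1b1 took 56.0 ± 3.11% in mutant and 56.2 ± 2.73% in wild-type libraries, and Atp1b3, the third β gene, took 26.4 ± 2.78% in mutant and 23.7 ± 1.37% in wild-type libraries. The ratio of Atp1b1 to Atp1b2 was 3.31, 3.63, 2.56 and 3.39 in mutant replicates 1 to 4, against 2.97, 2.72, 2.41 and 3.15 in wild-type replicates 1 to 4. The groups overlapped through mutant replicate 3.

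Esrrb (chromosome 12, 86361117 to 86521628, plus strand) encodes an orphan nuclear receptor that mouse marginal cells need for their identity and for endolymph production. It had 63.3, 48.8, 55.2 and 63.8 CPM in mutant replicates 1 to 4, against 72.7, 60.4, 73.1 and 80.1 CPM in wild-type replicates 1 to 4. Mutant replicates 2 and 3 lay below every wild-type library, and the other two exceeded only wild-type replicate 2. The log2 fold change was -0.31 (SE 0.12, fold 0.807, 95% interval -0.57 to -0.045), with the smallest p of the 7 genes, but an edgeR adjusted p of 0.924. The interval covers a single gene and is not adjusted for the number of genes tested.

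**Figure D2:**
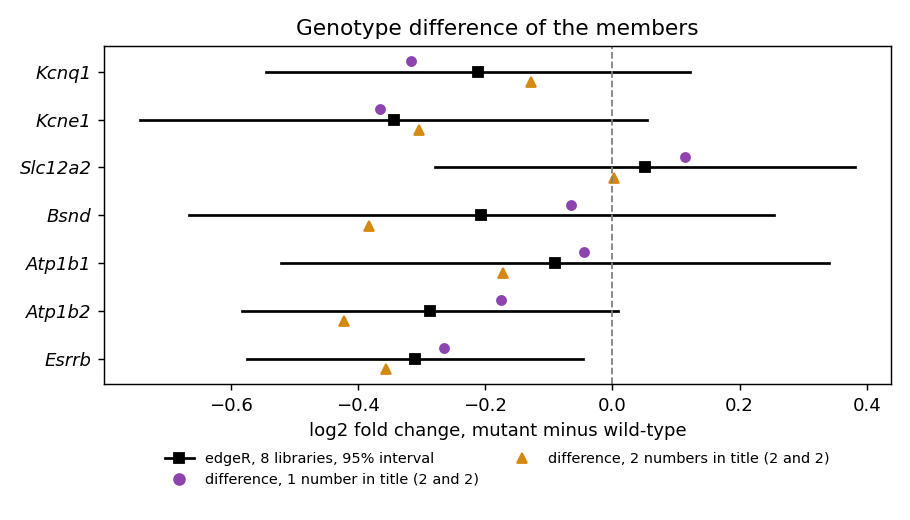
Log2 fold change (mutant minus wild-type) of the 7 genes with edgeR's unadjusted 95% interval over 8 libraries (squares and lines), and the difference of mean log2 CPM among libraries with 1 (circles) or 2 numbers in the title (triangles). The interval of Esrrb alone lies wholly below 0, and for 6 of the 7 genes both title forms give a difference below 0.

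Sample titles carry either a single number (replicates 1 and 4 of each genotype) or a pair of numbers (replicates 2 and 3), whose meaning is not stated. This title form separated libraries of either genotype, so each genotype difference was also taken within it. For Esrrb the difference of mean log2 CPM was -0.26 among titles with 1 number and -0.36 among those with 2. For Kcne1 the differences were -0.37 and -0.30, for Atp1b2 -0.18 and -0.42, and for Kcnq1 -0.32 and -0.13, in the same order. Within each title form both mutant libraries lay below both wild-type libraries for 3 of the 7 genes, Kcnq1, Atp1b2 and Esrrb, where 4.19% of all genes tested did so. Levels of these 3 genes were positively correlated within each title form, so they do not count as 3 separate observations. For Kcne1, mutant replicate 3 at 58.2 CPM exceeded wild-type replicate 2 at 55.4 CPM.

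With title form in the fit, 4 of the 7 genes had an unadjusted p under 0.05 in edgeR, against 7.63% of all genes, and 0 passed after adjustment, against 0.0234%. The log2 fold changes were then -0.31 for Esrrb (SE 0.080, edgeR adjusted p = 0.609), -0.30 for Atp1b2 (SE 0.086, 0.636), -0.34 for Kcne1 (SE 0.11, 0.647) and -0.22 for Kcnq1 (SE 0.083, 0.647). The estimates of these 4 genes moved by little, and their standard errors became smaller. Their levels were positively correlated with each other within each title form, so they are not 4 separate observations. The genotype effect of none of the 7 genes was found to differ between the title forms (interaction term in edgeR, adjusted p = 0.99999 for each, where 0.0795% of all genes passed).

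Kcnq1 and Atp1b1 differed between title forms in opposite directions. Kcnq1 had 65.2 to 77.3 CPM in libraries with 2 numbers in the title and 43.9 to 60.3 CPM in those with 1, without overlap (log2 fold change, 2 numbers minus 1 number, 0.35, SE 0.083, edgeR adjusted p = 0.0406). Atp1b1 had 599 to 784 CPM in libraries with 2 numbers and 909 to 1066 CPM in those with 1, also without overlap (-0.45, SE 0.10, edgeR adjusted p = 0.0378). Of all genes tested 9.39% were called in this comparison, 6.49% higher and 2.9% lower, and 19.5% had title forms that did not overlap, 11.6% higher and 7.9% lower. The comparison was made with these values known. Neither call is firm, since that of Kcnq1 was lost without each library but wild-type replicate 2 (adjusted p = 0.0752 to 0.110) and that of Atp1b1 without each of the 8 (0.0604 to 0.118). Kcne1 (-0.41, SE 0.11, edgeR adjusted p = 0.0566), Atp1b2 (-0.26, SE 0.086, 0.100) and Esrrb (-0.24, SE 0.080, 0.103) had negative estimates and did not pass, although Kcne1 passed without wild-type replicate 3 (-0.50, 0.0477).

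The ratio of Kcne1 to Kcnq1 per length therefore split by title form and not by genotype. It was 0.922 and 1.120 in the mutant and 1.06 and 1.24 in the wild-type libraries with 2 numbers. With 1 number it was 2.05 and 1.62 in the mutant and 1.87 and 1.90 in the wild-type libraries. By genotype it averaged 1.43 ± 0.508 in mutant and 1.52 ± 0.430 in wild-type libraries (SD, n = 4 each). The ratio of Kcne1 to Slc12a2 per length was 0.433 to 0.608 in mutant and 0.607 to 0.800 in wild-type libraries. The genotypes overlapped narrowly in that ratio, and it was not tested.

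Kcnq1ot1, a long non-coding RNA transcribed antisense from within Kcnq1 (chromosome 7, 143203458 to 143296549, minus strand), showed the same split and is named because of it. It had 34.9 to 38.3 CPM in libraries with 2 numbers and 11.9 to 21.3 CPM in those with 1 (log2 fold change 1.10, SE 0.17, edgeR adjusted p = 0.0133), a call lost without wild-type replicate 4 (0.0557). Between genotypes it stood at 27.3 ± 12.9 CPM in mutant and 26.3 ± 10.2 CPM in wild-type libraries (SD, n = 4 each). Of the merged exon bases of Kcnq1, 121 bases or 2.96% are shared with this RNA, and without a known strand setting the reads of those bases cannot be assigned. The exon of Kcnq1ot1, 93092 bases, lies wholly within the Kcnq1 gene. Without the strand, reads of unspliced Kcnq1 RNA there cannot be told from reads of Kcnq1ot1, so the 2 levels may not be independent. The part of Kcnq1ot1 in the Kcnq1 values was not tested.

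For Atp1b1, markers of neurons moved with the title form as well. The 8 neuron markers summed to 3277 to 3918 CPM in libraries with 2 numbers and 4979 to 5403 CPM in those with 1. The part of neurons in the Atp1b1 values was not tested.

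**Figure D3:**
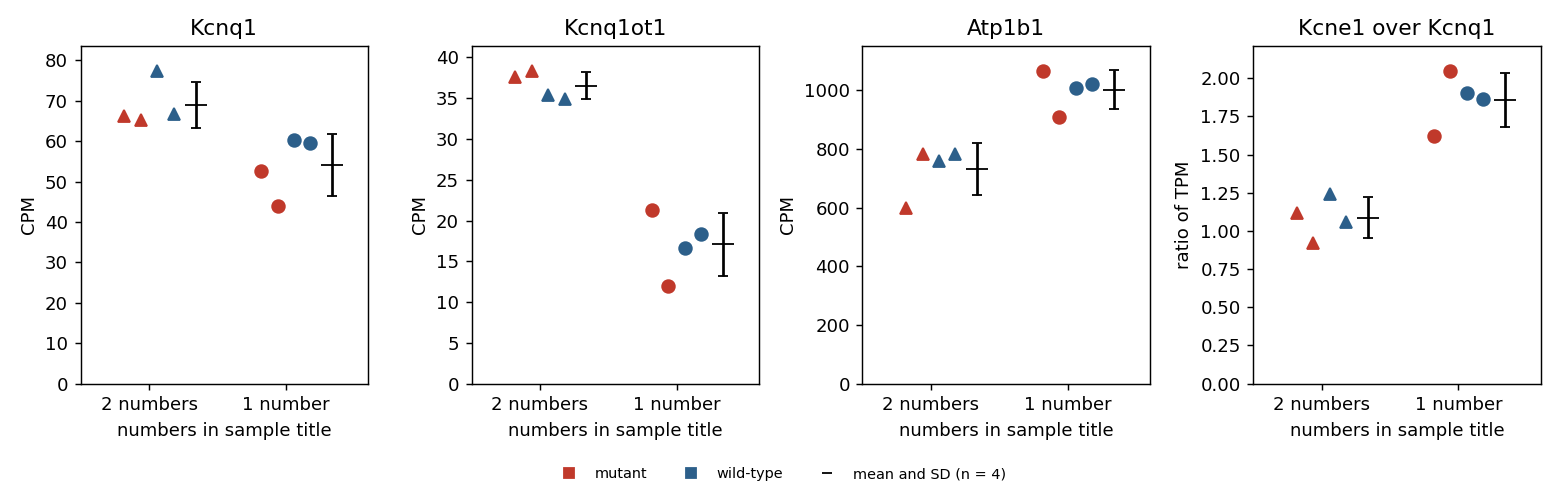
Kcnq1, Kcnq1ot1 and Atp1b1 in CPM and the ratio of Kcne1 to Kcnq1 in TPM (linear axes from 0) in the 4 libraries with 2 numbers and the 4 with 1 number in the sample title; bars are mean and SD and colours give the genotype. In all 4 panels the title forms do not overlap, with Kcnq1 and Kcnq1ot1 higher and Atp1b1 and the ratio lower in titles with 2 numbers.

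Across the 8 libraries Esrrb and Kcne1 rose and sank together. Pearson's r of their log2 CPM was 0.954 (exact permutation p over pairings, adjusted over the 21 pairs of the 7 genes, 0.0135), and Spearman's rho was 0.929 (adjusted exact p = 0.0469). Without the 2 libraries farthest from the median of Kcne1, r was 0.879, and it was 0.951 and 0.949 within titles of 1 and 2 numbers, each over 4 libraries. Centred within genotype, r was 0.957 (8 libraries, not tested). Esrrb stood at 0.509 ± 0.0305 times the TPM of Kcne1 in mutant and 0.502 ± 0.0590 times in wild-type libraries (SD, n = 4 each). The genotypes therefore did not differ in this ratio beyond its spread. By title form the ratio was 0.443 to 0.505 with 1 number and 0.504 to 0.579 with 2.

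Atp1b2 and Esrrb were the other pair to pass, with r = 0.905 (exact permutation p adjusted over 21 pairs, 0.0154) and rho = 0.905 (adjusted exact p = 0.0479). Their r was 0.682 without the 2 libraries farthest from the median of Atp1b2, and it was 0.603 and 0.955 within titles of 1 and 2 numbers. Centred within genotype, their r was 0.817 (8 libraries, not tested). The permutations behind the p-values exchanged libraries across genotypes and title forms, so shared differences between these groups enter the p-values. The raw exact p-values of these pairs for r were 6.45e-04 for Kcne1 with Esrrb and 0.00146 for Atp1b2 with Esrrb. Points of 1 library share its dissection and depth, the amount of strial tissue in each was not measured, and these relations were computed with the values already known.

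Kcnq1 did not follow these genes over all 8 libraries, with r of -0.18 with Kcne1, -0.025 with Esrrb and -0.089 with Atp1b2, values that join title forms without overlap in Kcnq1. Centred within genotype, which also joins the title forms, r was -0.62 with Kcne1, -0.60 with Esrrb and -0.65 with Atp1b2 (8 libraries, not tested). Within titles of 1 number r was 0.784 with Kcne1, 0.837 with Esrrb and 0.927 with Atp1b2. Within titles of 2 numbers r was 0.930 with Kcne1, 0.913 with Esrrb and 0.789 with Atp1b2. With Slc12a2 it was -0.33 and 0.695, with Bsnd 0.296 and 0.666, and with Atp1b1 0.704 and 0.197, within titles of 1 and 2 numbers. Each of these values within a title form rests on 4 libraries and was not tested. For Slc12a2 and Esrrb, by contrast, r was -0.73 and 0.341 within titles of 1 and 2 numbers.

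**Figure D4:**
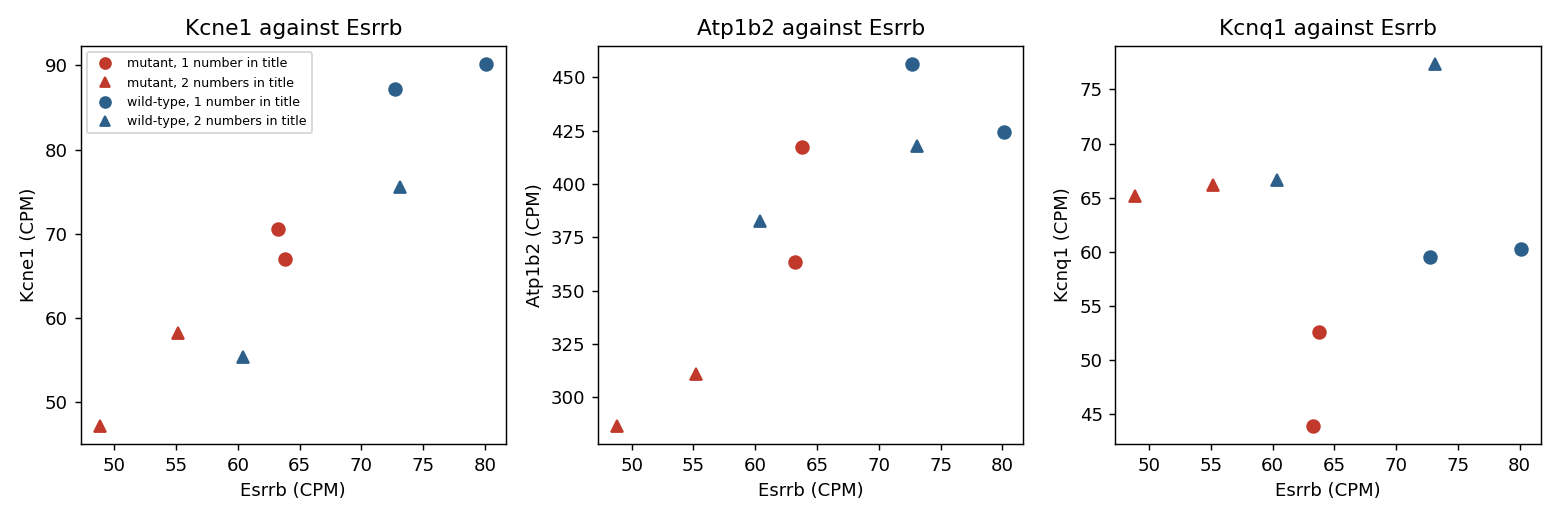
Kcne1, Atp1b2 and Kcnq1 against Esrrb, in CPM on linear axes that do not start at 0, 1 point per library; colours give the genotype and shapes the numbers in the title. Kcne1 follows Esrrb across all 8 libraries, while Kcnq1 rises with it only within each title form (4 libraries each), circles below triangles.

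The genes whose pattern was most like the mean of the 7, each centred within genotype over 8 libraries, were Kdr (r = 0.992), Gspt1 (0.988), Amacr (0.983), Pigk (0.981) and Xbp1 (0.981). They were the highest of 19376 genes with a mean of at least 1 CPM. This is a description with no test.

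Of 9 other genes of marginal and dark cells 0 passed in edgeR in either direction and 1, Lrp2, had an unadjusted p under 0.05, while 7 had negative log2 fold changes, and the median was -0.20 beside -0.0061 over all genes. The median ranged from -0.23 without mutant replicate 1 to -0.10 without wild-type replicate 1, and was -0.11 without mutant replicate 3, -0.13 without mutant replicate 2 and -0.13 without wild-type replicate 4. Lrp2, the endocytic receptor megalin at the apical membrane, had the smallest p of the list, with 143 ± 26.2 CPM in mutant and 197 ± 51.6 CPM in wild-type libraries (SD, n = 4 each). Its log2 fold change was -0.46 (SE 0.20, edgeR adjusted p = 0.924). The sterol transporter Abcg1 followed (-0.21, SE 0.12, 0.947).

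The families of the 7 genes also held 0 calls in edgeR in either direction, with 2 genes, Fxyd3 and Esrra, at an unadjusted p under 0.05. Among 8 other KCNQ and KCNE subunits the median log2 fold change was 0.077, and the smallest p belonged to Kcne1l (0.97, SE 0.43, edgeR adjusted p = 0.924) and Kcne2 (1.14, SE 0.87, 0.993), both highest in mutant replicate 4 at 3.12 and 7.89 CPM. The median was -0.051 without that library, and with others left out it ranged from 0.023 (wild-type replicate 4) to 0.12 (wild-type replicate 1). Kcne2 also belongs to the list of choroid plexus markers, which were high in mutant replicate 4. Among 11 other pump subunits and FXYD regulators 8 were negative and the median was -0.15, but -0.057 without wild-type replicate 1, -0.051 without wild-type replicate 2, -0.094 without mutant replicate 3 and -0.24 without wild-type replicate 3. Fxyd3, a pump regulator, had 21.2 ± 1.003 CPM in mutant and 26.4 ± 3.68 CPM in wild-type libraries (SD, n = 4 each). Its log2 fold change was -0.31 (SE 0.11, edgeR adjusted p = 0.907), and Fxyd6 followed (-0.15, SE 0.11, 0.994). Among 16 cotransporters, their kinases and CLC channels the median was -0.021 (-0.058 without wild-type replicate 1 to 0.035 without wild-type replicate 2), with the chloride-proton exchanger Clcn3 (-0.15, SE 0.090, edgeR adjusted p = 0.965) and the kinase Oxsr1 (0.090, SE 0.072, 0.999) at the smallest p. Of the 5 estrogen-related receptors and coactivators, Esrra, a regulator of mitochondrial genes, had a log2 fold change of -0.25 (SE 0.097, edgeR adjusted p = 0.924) and Perm1 of -0.15 (SE 0.20, 0.99999).

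Intermediate cell and melanocyte markers had 8 of 10 positive, with a median log2 fold change of 0.044 (-0.0059 without wild-type replicate 2 to 0.13 without wild-type replicate 1) and summed levels of 437 to 562 CPM in mutant and 426 to 609.6 CPM in wild-type libraries. The melanosome gene Pmel (0.29, SE 0.12, edgeR adjusted p = 0.924) and the potassium channel gene Kcnj13 (0.48, SE 0.27, 0.943) had the smallest p. Kcnj13 also belongs to the list of choroid plexus markers, which summed to 2183 CPM in mutant replicate 4. The 4 basal cell markers had a median of 0.10 (0.020 without mutant replicate 4 to 0.21 without mutant replicate 2). The 4 spindle and root cell markers had a median of -0.18 (-0.22 without wild-type replicate 2 to -0.12 without wild-type replicate 1), led by the anion exchanger Slc26a4 (-0.39, SE 0.15, edgeR adjusted p = 0.924). In each of these lists 0 genes passed in edgeR in either direction, with 2 at an unadjusted p under 0.05 over the 3 lists, Pmel and Slc26a4. Hair cell markers, at 191 to 209.5 CPM in mutant and 196 to 229 CPM in wild-type libraries, were present in every library, as were the markers of marginal cells. Mucosal epithelium is a tissue that also uses the cotransporter and the pump. Its markers summed to 4.60 to 7.22 CPM in mutant and 199.6 to 671 CPM in wild-type libraries. In edgeR 4 of these 11 markers were called lower, against 0.0374% of all genes tested, or 8 genes. All 11 were lower at an unadjusted p under 0.05 in edgeR, against 3.09% of all genes. Muscle markers (6, median -0.26), erythroid markers (5, median -0.93) and neuron markers (8, median 0.043) held 0 calls in edgeR and 0 at an unadjusted p under 0.05. These medians turned on single libraries, at 0.031 for muscle without wild-type replicate 1, -0.49 for erythroid without wild-type replicate 2 and -0.087 for neuron markers without wild-type replicate 3. The part of these cell types in the values of the 7 genes was not tested.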

How the data were processed

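RNA was extracted with TRIzol and a silica column kit, and the total RNA library kit adds unique molecular identifiers (per the labels' protocols). The submitters' processing notes name FastQC, STAR, HTSeq and mm10. Versions, annotation, strand setting and identifier use are not given in the sources available. The authors deposited whole-number counts per gene symbol, not normalized, for 8 samples. Positions and exon lengths came from GENCODE M21 (GRCm38), which holds 45236 of the 47517 symbols, and 15 symbols altered to date-like numbers held at most 0.135% of counts.

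The counts were tested with edgeR 4.0.16 in R 4.3.3 (TMM normalization, default filter, robust quasi-likelihood, genotype as the only term), and the procedure was tested on simulated data. SE is the log2 fold change divided by the square root of F. Log2 CPM used a prior count of 2. TPM covered the 45236 symbols with a length. With 18930841 to 23064578 counts per library, 3 counts correspond to 0.130 to 0.158 CPM, and such floors cover counting error only. Chi-square per degree of freedom was at least 18.4 for every pair of libraries, and each was kept as a separate sample.

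The members and lists were chosen with earlier results of these data known. All 7 members were named, and of each of 15 other lists at most 2 genes by smallest p, with the 5 genes of highest r with the mean of the members. Atp1b3, Kcnq1ot1 and Nme7 fall outside this rule and were added with their values known. Alternatives used other normalizations, filters, DESeq2 1.42.0, limma-voom (limma 3.58.1), covariates, a block and libraries left out. Replicate numbers follow accession order, and whether samples of the genotypes are paired is not stated.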

Additional observations from a re-analysis of the deposited data

How the results depend on the processing

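Of the 7 genes, 0 were called under each of the 18 alternatives to the main edgeR test, namely other normalizations, filters and tools, title form, a block, haemoglobin and mitochondrial genes left out, and each library left out. Kcnq1, Kcne1, Atp1b2, Esrrb and Bsnd kept a negative log2 fold change under all 18. With each library left out in turn the ranges were -0.29 to -0.10 for Kcnq1, -0.47 to -0.24 for Kcne1, -0.39 to -0.21 for Atp1b2, -0.38 to -0.24 for Esrrb and -0.31 to -0.055 for Bsnd. Atp1b1 ranged from -0.23 to 0.042, positive without mutant replicate 3, and Slc12a2 from -0.058 to 0.12, negative without wild-type replicate 2 (-0.058) and mutant replicate 4 (-0.021). The number of the 7 at an unadjusted p under 0.05 in edgeR ranged from 0 to 3 with single libraries left out. The share of all genes at that threshold is not given for these fits, so the range has no background to be read against.

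Neighbouring title numbers were also used as a replicate block, an assumed pairing that the labels do not state. The log2 fold changes with the block were -0.31 for Esrrb (edgeR adjusted p = 0.116), -0.34 for Kcne1 (0.0994), -0.30 for Atp1b2 (0.223) and -0.22 for Kcnq1 (0.293), with 0 called. The block gave 29 calls over all genes, against 9 without it, DESeq2 gave 68 and limma-voom 16. The deviations of same-numbered libraries from their genotype means correlated at 0.138, 0.273, 0.198 and -0.036 for replicates 1 to 4, so not every library correlated best with its own number. Between title forms the Bsnd difference, -0.025 with all libraries, ranged from -0.18 to 0.15 and turned positive when 1 library was left out in 4 cases, at 0.018 (wild-type replicate 1), 0.026 (wild-type replicate 2), 0.15 (mutant replicate 2) and 0.0039 (mutant replicate 4). At 69 to 124 counts per library, Bsnd had the widest edgeR interval of the 7 genes.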
